A study of Arabidopsis thaliana with 60 samples.

Results

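The 8 genes described here were taken by locus identifier from the 32833 genes of the expression table. They are 4 genes tied to low sugar, ASN1 (AT3G47340, also called DIN6), SEN1 (AT4G35770, also DIN1), DIN10 (AT5G20250) and AKINBETA1 (AT5G21170), and 4 class II trehalose-phosphate synthase genes, TPS8 (AT1G70290), TPS9 (AT1G23870), TPS10 (AT1G60140) and TPS11 (AT2G18700). RNA was sequenced from wild-type Col Arabidopsis at the bolting stage, grown at 23 °C in long days of 14 h light and 10 h dark at a light level of 50 µmol (per square metre and second). Single leaves were lit at 1700 µmol (HL, high light), warmed by a heat block set 2 cm beneath them (HS, heat stress), or given both at once (HL+HS). In a further treatment (HL&HS) 1 leaf was lit while a different leaf was warmed. Exposures lasted 2 or 8 min, and RNA came from the treated leaves and from stem that was not itself treated, in 11 leaf groups and 9 stem groups of 3 libraries, 60 libraries in all, with an untreated control at 0 min for each tissue. All groups share the Col genotype, and the groups hold no unstressed plants at 2 or 8 min. The labels do not say whether the 3 libraries of a group came from separate plants, so the p-values measure the spread between these libraries, which may be technical.

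Plants sense sugar shortage through SnRK1, a kinase made of a catalytic alpha subunit with beta and gamma partners, which is held back when sugar is plentiful by trehalose 6-phosphate, a signal that follows sucrose. The DIN (dark-inducible) genes are known to be expressed in darkness or when sugar runs low, and to be repressed by sugar; ASN1 makes asparagine, which stores and moves nitrogen when carbon is short. Class II TPS proteins carry synthase-like and phosphatase-like regions, but little or no synthase activity is known for most of them, and several of their transcripts are known to rise under carbon starvation and to fall when sugar is fed.

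Libraries of the 2 min groups were deeper, with 31725824 to 47559552 counted reads in 27 libraries against 11071918 to 12998149 in the 33 libraries at 0 and 8 min. In a comparison of a 2 min group with control, the depth class and the treatment therefore cannot be told apart, while the 8 min comparisons and those between groups of 1 time stay within 1 depth class. For the leaves under a single stress at 8 min the sample title names 1 stress and the treatment tag the other, so these groups are called titled HL and titled HS. All stem samples are tagged as untreated, so the stress named for a stem group, also at 8 min, rests on the title alone. Leaf markers (RBCS1A, RBCS2B, CA1 and RCA) summed to 863378 or more normalized counts in each leaf library and to at most 534113 in each stem library. In leaf, 62.5% of their tests against control were called higher and 0% lower, against 17.4% and 12.8% over all genes tested. Their mean sum was 880565 in control leaves. In stressed leaves it ran from 876661 under HS at 2 min to 1185680 in the heated HL&HS leaf at 8 min. The part of this in the leaf results was not tested. The 7 secondary-wall markers (CESA4, CESA7, CESA8, NST1, NST3, LAC4 and LAC17) summed to 486 to 2804 in leaf and 22677 to 62812 in stem. The lit HL&HS leaf at 8 min read 1001, 1114 and 2804, with all 5 of the markers tested in leaf called higher, and their part in its results was not tested.

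The promoters of 3 members are shown as examples of different patterns: ASN1 moved in both directions in leaf, TPS8 rose in every leaf group and TPS11 rose in every leaf and stem group. SEN1 also moved in both directions in leaf. Its window is not shown and had no match to any of the short sequences searched for below. Each sequence is the 250 bases before the annotated gene start in RefSeq TAIR10.1, 5′ to 3′ on the gene's strand. Capitals, of which the TPS8 window has none, mark the G-box (CACGTG, bound by basic leucine zipper factors among others) and TATCCA, the core of a sugar-starvation box. The windows lie at chr3:17441432-17441681 (minus strand), chr1:26474834-26475083 (minus strand) and chr2:8108648-8108897 (plus strand).
ASN1: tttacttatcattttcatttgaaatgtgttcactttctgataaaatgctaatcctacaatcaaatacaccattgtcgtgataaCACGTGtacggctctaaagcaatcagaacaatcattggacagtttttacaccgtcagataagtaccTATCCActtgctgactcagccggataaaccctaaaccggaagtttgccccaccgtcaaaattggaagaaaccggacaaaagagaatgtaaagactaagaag
TPS8: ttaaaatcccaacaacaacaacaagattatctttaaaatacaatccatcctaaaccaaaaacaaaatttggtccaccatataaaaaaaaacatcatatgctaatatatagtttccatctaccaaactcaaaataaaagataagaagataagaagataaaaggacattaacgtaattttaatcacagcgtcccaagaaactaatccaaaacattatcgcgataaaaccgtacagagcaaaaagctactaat
TPS11: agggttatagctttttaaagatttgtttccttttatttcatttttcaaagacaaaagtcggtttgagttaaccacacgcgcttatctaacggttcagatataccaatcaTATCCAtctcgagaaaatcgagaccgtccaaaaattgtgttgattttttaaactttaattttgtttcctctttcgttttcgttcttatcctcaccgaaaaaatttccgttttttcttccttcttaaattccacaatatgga
In ASN1 the G-box began at position -167 and TATCCA at -101, counted back from the gene start, and 136 bases of that window are also annotated as exon of AT3G47341 on the opposite strand. On both strands, TATCCA was present in 4 of the 8 members' windows (ASN1, AKINBETA1, TPS10 and TPS11) and in 13.6% of 27443 promoters of the same length, and the G-box in 1 of 8 and in 6.49%. ACGT, which lies inside the G-box, was in 5 of 8 (ASN1, DIN10, TPS8, TPS9 and TPS10) and in 44.1%, while the evening element AATATCT and GAANNTTC, a heat shock element, were in 0 of 8, against 10.0% and 9.55% of promoters. These matches describe letters and not bound sites.

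The genes themselves lie on the chromosomes as follows in TAIR10.1, with the authors' build named TAIR10 in the submitters' processing notes. ASN1 spans chr3:17437840-17441431 (minus strand, 7 exon blocks), SEN1 chr4:16944878-16946266, DIN10 chr5:6833564-6836862 and AKINBETA1 chr5:7205477-7208613, all plus strand but ASN1. TPS8 spans chr1:26470795-26474833 and TPS10 chr1:22176934-22181740 on the minus strand, and TPS9 chr1:8432179-8435656 and TPS11 chr2:8108898-8112010 on the plus strand. Exons of ASN1 overlap an opposite-strand gene over 11 bases (0.401% of exon length) and those of DIN10 over 82 bases (2.63%), and whether counting used strand is not given in the sources used here. 0 of the members' exonic stretches of 50 bases recurred elsewhere in the genome.

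In untreated plants the class II gene TPS8 was the most abundant member in leaf and SEN1 differed most between tissues. Per kilobase of exon, leaf levels were 617 ± 32.1 normalized counts for TPS8, 410 ± 21.1 for DIN10, which encodes a raffinose synthase family protein, 336 ± 11.9 for SEN1 and 280 ± 25.0 for AKINBETA1 (SD, n = 3). TPS11 stood at 239 ± 19.5 per kilobase, TPS9 at 164 ± 4.31, ASN1 at 141 ± 11.5 and TPS10 at 101 ± 3.70. In stem, AKINBETA1, a beta subunit of SnRK1, was highest at 351 ± 37.6 per kilobase, followed by TPS8 at 307 ± 5.20, and SEN1, a rhodanese-family protein known from senescing leaves, was lowest at 10.2 ± 1.10. SEN1 read 418, 444 and 444 normalized counts in leaf control libraries and 14.7, 13.2 and 11.8 in stem control libraries, 30.7-fold higher in leaf by the fit (log2 4.94, SE 0.286). Of the 8 members, 7 differed between the control tissues by limma (Benjamini-Hochberg adjusted p under 0.05), where 82.9% of all genes did: ASN1, SEN1, DIN10, TPS8 and TPS11 were higher in leaf and AKINBETA1 and TPS10 higher in stem. TPS9 read log2 -0.04 (adjusted p = 0.658).

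In leaf, the 4 low-sugar genes did not move as a group. At 2 min ASN1 and SEN1 were lower under either single stress and higher when both stresses met on 1 leaf. At 8 min under HL+HS ASN1 was again higher but SEN1 was lower. DIN10 was lower in most groups, and AKINBETA1 was higher in most. TPS8 and TPS11 were higher in each of the 10 stressed leaf groups, and TPS9 and TPS10 moved little. A gene was called when its adjusted p was under 0.05. At 2 min, 5 of the 8 members were called under HL (2 higher, 3 lower; background 19.9% of all genes, 13.1% higher and 6.77% lower). Under HS 6 were called (3 higher, 3 lower; 18.3% of all genes, 11% higher and 7.25% lower), and under HL+HS 6, all higher (33.7% of all genes, 18.2% higher and 15.5% lower). The lit HL&HS leaf had 5 called members (3 higher, 2 lower; 26.4% of all genes, 15.6% higher and 10.9% lower) and the heated one 5 (3 higher, 2 lower; 30.9% of all genes, 18.4% higher and 12.5% lower). At 8 min, 5 members were called in leaves titled HL (3 higher, 2 lower; 32.9% of all genes, 18.9% higher and 14% lower). Leaves titled HS had 6 (4 higher, 2 lower; 33.1% of all genes, 19% higher and 14.1% lower) and HL+HS leaves 6 (4 higher, 2 lower; 35.5% of all genes, 18% higher and 17.5% lower). The lit HL&HS leaf at 8 min had 6 (3 higher, 3 lower; 28.9% of all genes, 17.4% higher and 11.5% lower) and the heated one 7 (4 higher, 3 lower; 42.4% of all genes, 24.6% higher and 17.8% lower). The members' share called was above the background share in every group, with 8 members a coarse measure. The members were chosen with earlier results of these data known, so this share is a description and not a test. Each of these counts uses the same 3 control libraries, so a shift shared by all 10 stressed groups cannot be told apart from one particular to those controls. The sum of 9 clock genes was 41150 to 42257 in control leaves and 30193 to 41023 in stressed leaves. Its part in the leaf results was not tested.

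ASN1, the asparagine synthetase gene, had the widest span of the 8 in leaf, with group means that differed 9.01-fold. It read 386, 358 and 421 normalized counts in control leaves. After 2 min of HL it read 69.2, 61.7 and 70.2, and after 2 min of HS 190, 198 and 232, both below all control libraries. With HL+HS on the same leaf for 2 min it read 592, 608 and 612, above all control libraries. These were a 5.72-fold fall under HL (log2 -2.52, SE 0.125, limma adjusted p = 6.69e-19), a 1.88-fold fall under HS (log2 -0.91, adjusted p = 4.28e-07) and a 1.56-fold rise under HL+HS (log2 0.64, adjusted p = 7.37e-05).
At 8 min ASN1 was still high under HL+HS, at 622, 564 and 561 normalized counts (log2 0.58, adjusted p = 0.000231), again above control. Leaves titled HL read 470, 412 and 486, which overlapped control (log2 0.23, adjusted p = 0.162), and leaves titled HS read 202, 263 and 272, below it (log2 -0.67). In HL&HS plants ASN1 overlapped control at 2 min in both leaves (log2 -0.10 and -0.14, neither called) and was below control at 8 min, at 246, 265 and 249 in the lit leaf (log2 -0.61) and 142, 146 and 236 in the heated leaf (log2 -1.19). Ordered by mean, HL at 2 min (67.0 ± 4.69 normalized counts, SD, n = 3) stood apart at the bottom, 4 groups from 175 to 254 overlapped with their neighbours, 4 from 354 to 456 with control among them overlapped too, and the HL+HS groups at 8 and 2 min (582 ± 34.6 and 604 ± 10.4) lay above the rest and overlapped each other.

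SEN1 shared the rise under HL+HS at 2 min but not the pattern at 8 min. It read 418, 444 and 444 normalized counts in control, 133, 113 and 125 after 2 min of HL, 203, 206 and 226 after HS, and 740, 825 and 861 after HL+HS. The first 2 treatments lay below every control library and HL+HS above every one, with log2 changes of -1.81 (SE 0.105), -1.04 and 0.89 and limma adjusted p of 6.6e-17, 3.62e-10 and 4.87e-09. At 8 min under HL+HS SEN1 read 309, 334 and 327, below control (log2 -0.43, adjusted p = 0.00112), while ASN1 was above it. SEN1 was lower in 9 of the 10 stressed groups, with log2 -1.37 in leaves titled HL and -1.53 in leaves titled HS, and the 3 libraries were below all control libraries in each of those 9 groups. In HL&HS plants it fell by 1.29 on the log2 scale in the lit leaf and 1.13 in the heated leaf at 2 min, and by 0.58 and 1.17 at 8 min.

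DIN10 fell less and mostly without a rise. Control leaves read 1313, 1320 and 1202 normalized counts and HL leaves at 2 min 946, 949 and 881, all below control (log2 -0.47, SE 0.0594, limma adjusted p = 8.91e-08). Its lowest level was at 8 min under HL+HS, at 660, 686 and 664, where log2 was -0.93 (adjusted p = 1.1e-16), the same leaves in which ASN1 was above control. At 2 min under HL+HS it read 1143, 1315 and 1279 and overlapped control (log2 -0.04, not called). It was lower in 8 of 10 leaf groups, the other exception being leaves titled HS at 8 min (log2 -0.11, adjusted p = 0.142, and 0.0117 without their replicate 3). AKINBETA1 was higher in 8 of 10, by log2 0.20 to 0.48, with its highest mean under HL+HS at 2 min, where libraries read 631, 605 and 676 against 505, 431 and 437 in control. The calls in leaves titled HL at 8 min and in the lit HL&HS leaf at 2 min were lost without leaf control replicate 2 or 3 (limma adjusted p up to 0.0929). Under HL and HS alone at 2 min it read log2 0.10 and 0.16 and was not called.

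**Figure D1:**
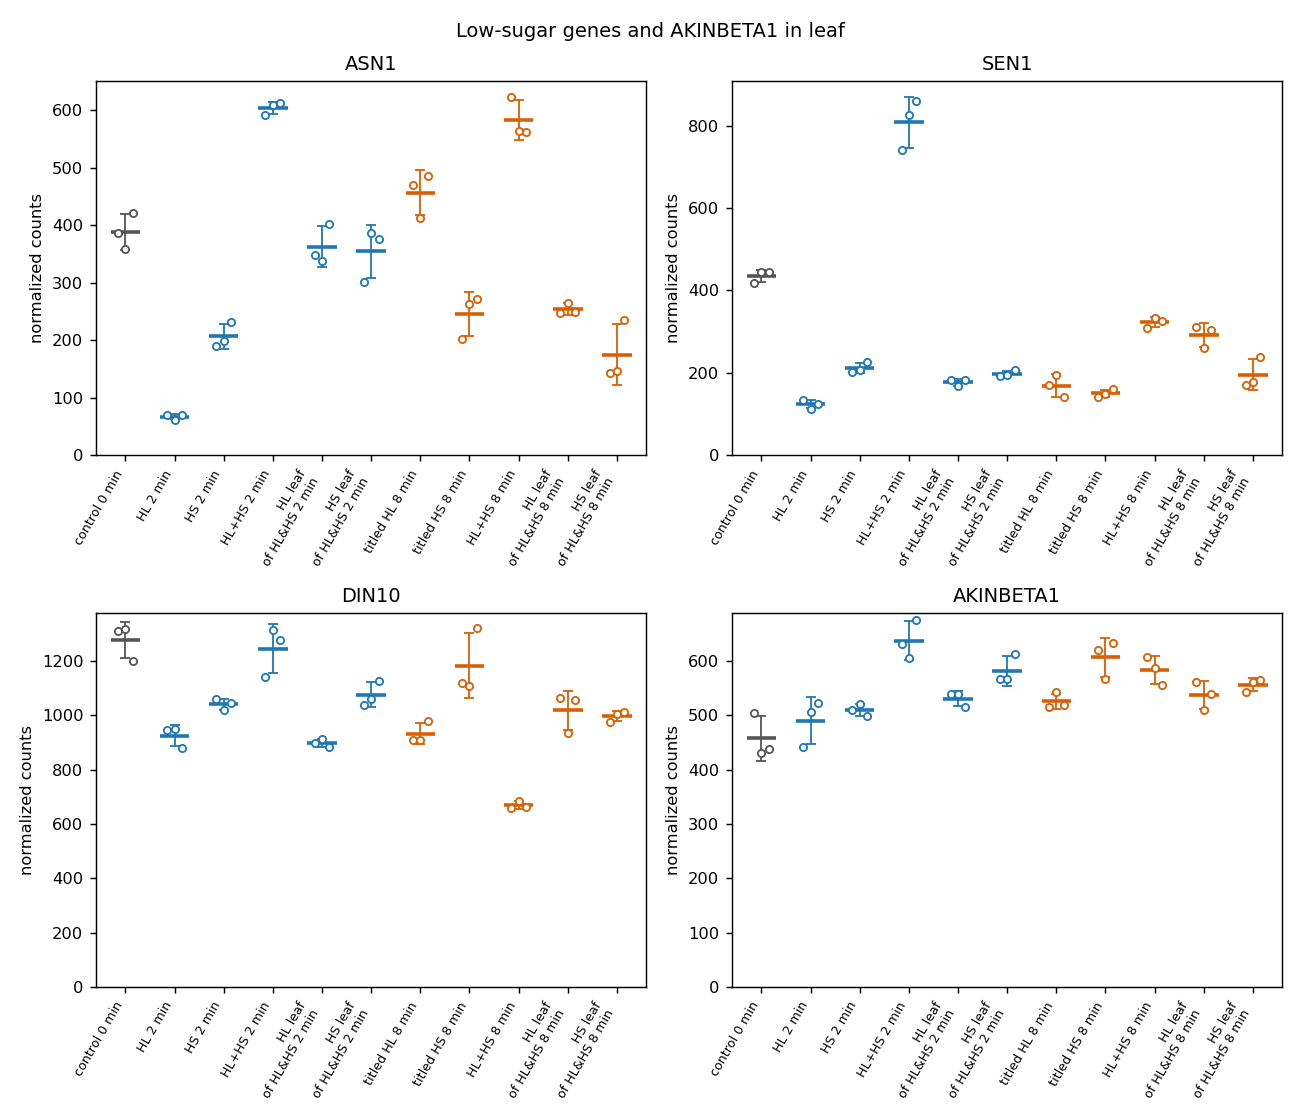
Normalized counts of ASN1, SEN1, DIN10 and AKINBETA1 in the 33 leaf libraries, by group on the x axis. Open points are libraries, thick lines group means and error bars SD (n = 3), in grey for control, blue for 2 min and orange for 8 min. ASN1 and SEN1 are lowest under HL at 2 min and highest under HL+HS at 2 min.

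TPS11 and TPS8 were the members that rose in every stressed leaf group. TPS11 read 673, 668 and 770 normalized counts in control leaves and 1478, 1550 and 1488 after 2 min of HL+HS, a 2.14-fold rise (log2 1.10, SE 0.0522, limma adjusted p = 3.04e-20). All 30 stressed leaf libraries lay above the control libraries, and its log2 change ranged from 0.60 in the lit HL&HS leaf at 8 min to that 1.10. The HL+HS group at 2 min stood apart from the next group, the heated HL&HS leaf at 2 min (1380 ± 25.0), whereas many groups between overlapped their neighbours.
TPS8 read 2102, 1944 and 2149 in control and 3490, 3717 and 3899 in leaves titled HS at 8 min (log2 0.84, SE 0.0437, adjusted p = 1.24e-19), and all of its stressed leaf libraries too were above control. The heated HL&HS leaf at 8 min was next, at 3717, 3447 and 3644 (log2 0.80), while leaves titled HL and the lit HL&HS leaf at 8 min were both at log2 0.24. TPS9 and TPS10 differed little from control. TPS9 was called in 2 of 10 groups, both at 8 min, in leaves titled HS (log2 0.22, adjusted p = 0.0428) and in the heated HL&HS leaf (0.27, adjusted p = 0.00781). TPS10 was called in 2, both at 2 min, under HS (0.18, adjusted p = 0.0482) and HL+HS (0.27, adjusted p = 0.00129). Leaving out any 1 of several libraries, leaf control replicates 1, 2 and 3 among them, ended the call of TPS9 in leaves titled HS and that of TPS10 under HS, and without its own replicate 2 the heated HL&HS leaf was not called for TPS9 (adjusted p = 0.0532).

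**Figure D2:**
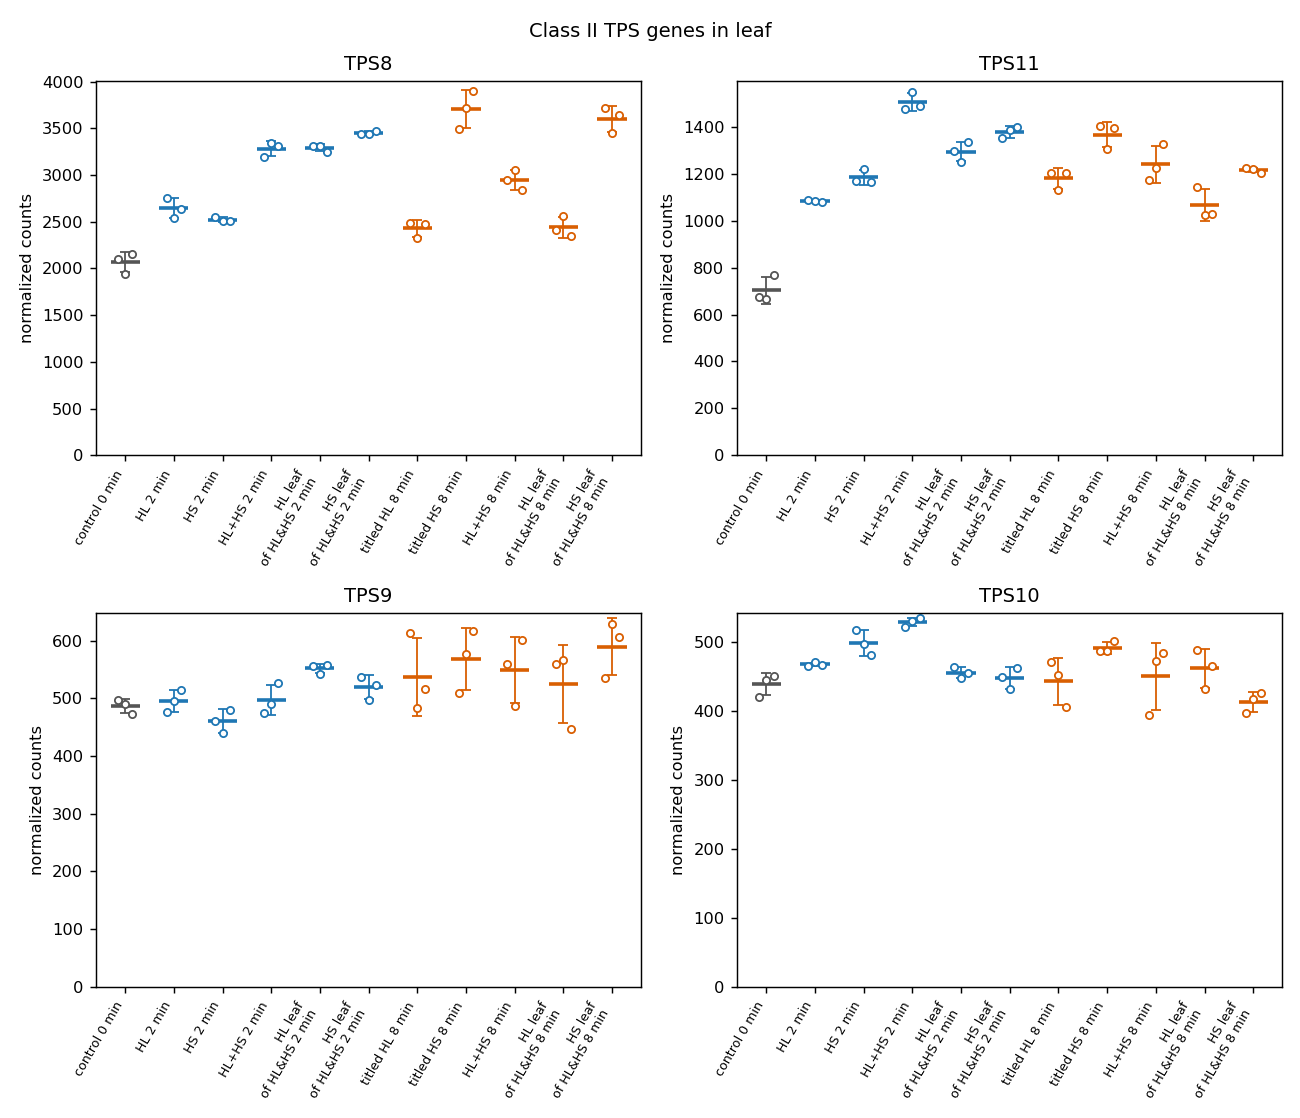
Normalized counts of the class II genes TPS8, TPS11, TPS9 and TPS10 in the 33 leaf libraries, by group, drawn as for the low-sugar genes (points are libraries, lines are means, bars are SD, n = 3). The stressed libraries of TPS8 and TPS11 all lie above control, and those of TPS9 and TPS10 mostly overlap it.

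Comparing stressed leaves of 1 time with each other leaves out the control and the difference in depth. At 2 min ASN1 and SEN1 were lower under HL than under HS, by log2 -1.61 and -0.77 (limma adjusted p = 8.21e-13 and 1.04e-06), and 2 of 8 members were called, where 8.59% of all genes were. With edgeR, DESeq2, limma voom or only the compared groups 4 were called, DIN10 (-0.17 in the fit to all leaf groups) and TPS11 (-0.13) being the others. The 8.59% belongs to the fit to all leaf groups, and the share of all genes under those settings is not given here. HL+HS exceeded HL by log2 3.15 (SE 0.125) in ASN1 and 2.70 in SEN1, and 7 of 8 members were called, all higher (26.7% of all genes, 12.4% higher), with TPS9 at 0.00. TPS10 (0.18) was not called when any 1 of the 6 libraries was left out. HL+HS exceeded HS by 1.55 in ASN1 and 1.93 in SEN1, with 6 of 8 called, all higher (30.5%, 16.2% higher). Whether another leaf of the plant was stressed also went with a difference. ASN1 was higher in the lit HL&HS leaf than in a leaf under HL alone by log2 2.42 (adjusted p = 3.9e-19), at 348, 337 and 403 against 69.2, 61.7 and 70.2 normalized counts, and TPS8 (0.32), TPS11 (0.26) and SEN1 (0.52) were higher too, so that 4 of 8 were called against 18.7%. The heated HL&HS leaf exceeded the HS leaf in 4 of 8 members (29.5%), namely ASN1 by 0.77, TPS8 by 0.45, TPS11 by 0.22 and AKINBETA1 by 0.19, the last with an adjusted p of up to 0.138 without HS replicate 1 or 3 or replicate 3 of the heated HL&HS leaf.
At 8 min, with the groups taken by title, ASN1 was lower in the lit HL&HS leaf than in the leaf titled HL by log2 -0.84 (adjusted p = 1.15e-06) and lower in the heated HL&HS leaf than in the leaf titled HS by -0.52 (adjusted p = 0.000852). SEN1 was higher in both, by 0.79 and 0.36, the second with an adjusted p of 0.114 without replicate 3 of the heated HL&HS leaf. In these comparisons 3 of 8 members (29.0% of all genes) and 5 of 8 (38.6%) were called. With the groups taken by tag, an alternative chosen after seeing the data, the lit HL&HS leaf was set against the leaf titled HS and ASN1 differed by log2 0.06 (limma adjusted p = 0.778), so the lower ASN1 of the lit leaf depends on the titles. The heated leaf was then lower than the leaf titled HL by -1.42 (adjusted p = 2.53e-12). SEN1 was higher by 0.95 in the lit leaf, and by 0.20 in the heated leaf, which was not called (adjusted p = 0.124). TPS8 was lower by -0.60 in the lit leaf and higher by 0.57 in the heated leaf, where by title it read 0.01 and -0.04, neither called. By tag, 5 of 8 members were called in the lit leaf (32.1% of all genes) and 2 of 8 in the heated leaf (40.9%). Leaves titled HL exceeded leaves titled HS in ASN1 by 0.90 and were lower in TPS8 by log2 -0.61, with 5 of 8 called (22.5%). HL+HS at 8 min exceeded the group titled HS by 1.25 in ASN1 and 1.10 in SEN1 and was lower in DIN10 by -0.82, with 5 of 8 called (28.0%). Against the group titled HL, 4 of 8 were called (33.7%), among them SEN1 at 0.94 and DIN10 at -0.48.

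The combined log2 change was also set against what HL alone and HS alone add up to. Such a departure uses the 0 min control, so any difference shared by all 2 min libraries, such as depth, enters the departures at 2 min. Its part in them was not tested. At 2 min in leaf ASN1 stood 4.06 log2 units above that sum (SE 0.176, limma adjusted p = 1.19e-21) and SEN1 3.74 above (SE 0.148, adjusted p = 5.86e-23), with both genes lower under each single stress and higher under the combination. DIN10 was 0.72 above the sum and TPS11 0.28 below it (log2 -0.28, adjusted p = 0.00367), so that 4 of 8 members departed, against 24.3% of all genes. At 8 min 6 of 8 departed (33.1% of all genes). ASN1 was above the sum by 1.02 and SEN1 by 2.47, and DIN10 (-0.36), AKINBETA1 (-0.26), TPS8 (-0.56) and TPS11 (-0.89) were below it, of which AKINBETA1 was not called when any 1 of 6 libraries was left out (adjusted p up to 0.0885, among them leaf control replicates 2 and 3), by edgeR, DESeq2 or voom, or with only the compared groups. This sum is the same whichever of the swapped labels is right.

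**Figure D3:**
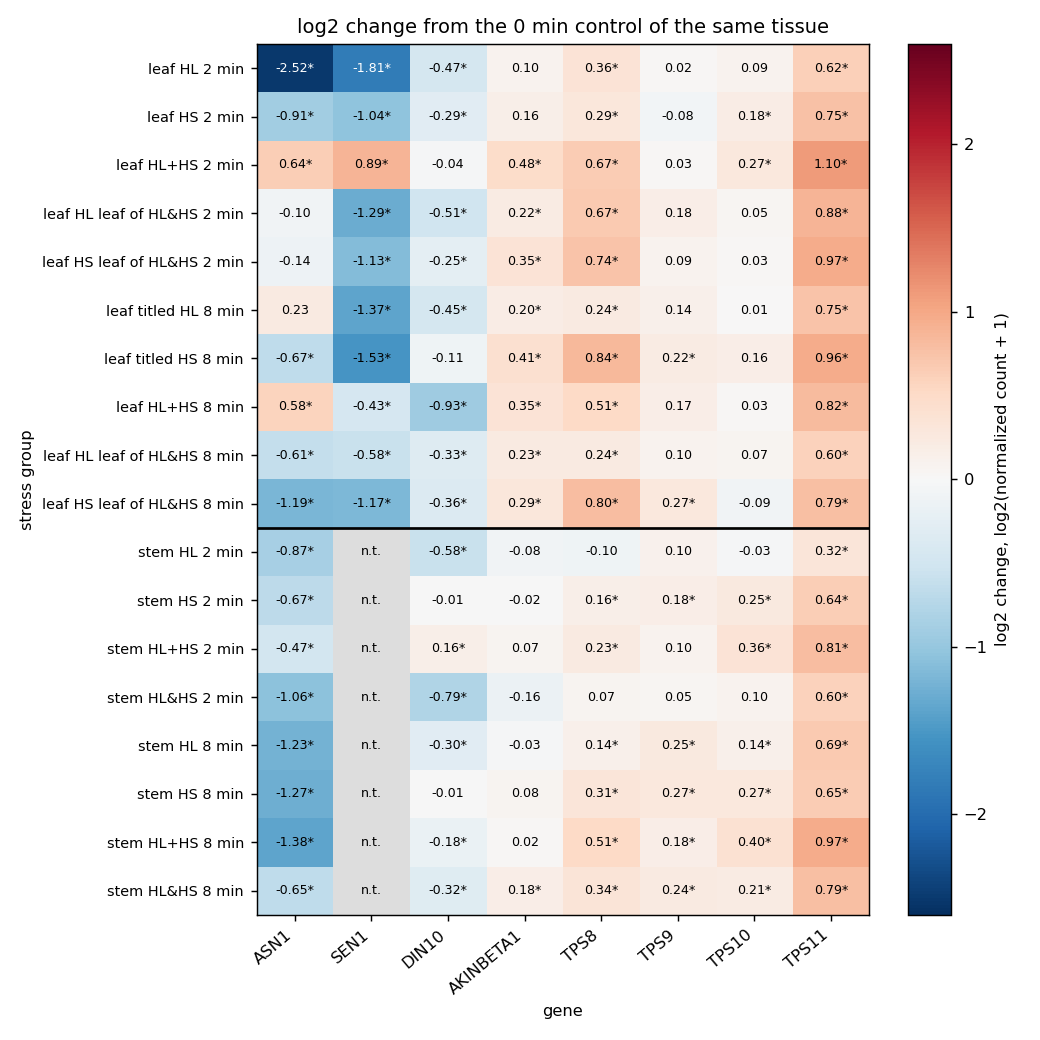
Change from the 0 min control of the same tissue for the 8 genes (x axis) in the 10 leaf and 8 stem stress groups (y axis), as log2 of normalized count + 1. Red is higher and blue lower, a star marks a limma adjusted p under 0.05, and n.t. marks SEN1 in stem, which was below the level tested. TPS11 is starred in all 18 groups and ASN1 in all 8 stem groups.

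In the untreated stem of stressed plants ASN1 was lower and TPS11 higher in each of the 8 groups. All 8 groups were set against the same 3 control stem libraries, with no unstressed stems at 2 or 8 min. A shift shared by every stem group therefore cannot be told apart from one particular to those controls. TPS8 and TPS10 were higher in 6 of 8 each and TPS9 in 5, DIN10 was lower in 5 and higher in 1, and AKINBETA1 was higher in 1. The sum of the 7 secondary-wall markers was lower in these groups too, at 58772 to 62812 in control stems and 22677 to 43545 in stressed stems. In 7 groups 7 of 7 markers were called lower, and 6 of 7 in HL+HS at 8 min. Among stressed stems the mean sum was highest in that last group (42115), where ASN1 and TPS11 changed most. The sum of 9 clock genes was 23172 to 23893 in control stems and 12425 to 17044 in stressed stems. The part of these in the stem results was not tested, and in bulk tissue fewer cells of a type and less RNA per cell cannot be told apart. Of the 7 members tested in stem, 3 were called at 2 min under HL (1 higher, 2 lower; background 42.8% of all genes, 21% higher and 21.9% lower) and 5 under HS (4 higher, 1 lower; 30.8% of all genes, 15.7% higher and 15% lower), or 3 without stem HS 2 min replicate 2. Under HL+HS 5 were called (4 higher, 1 lower; 36.2% of all genes, 17.8% higher and 18.5% lower), and under HL&HS 3 (1 higher, 2 lower; 41% of all genes, 19.9% higher and 21.1% lower). At 8 min 6 were called under HL (4 higher, 2 lower; 43.7% of all genes, 22% higher and 21.7% lower) and 5 under HS (4 higher, 1 lower; 34.4% of all genes, 17.9% higher and 16.5% lower). Stems of HL+HS plants had 6 (4 higher, 2 lower; 33.6% of all genes, 18.1% higher and 15.4% lower) and those of HL&HS plants 7 (5 higher, 2 lower; 42.9% of all genes, 20.6% higher and 22.3% lower). Under HL and HL&HS at 2 min the share of members called was close to the background share.

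ASN1 read 233, 197 and 233 normalized counts in control stems. In stems of HL+HS plants it read 173, 152 and 152 at 2 min and 76.3, 77.8 and 100.5 at 8 min, below control both times. The log2 changes were -0.47 (SE 0.137, limma adjusted p = 0.00582) and -1.38 (adjusted p = 1.13e-10). Over the 8 groups its change ranged between these values, and all 24 stressed stem libraries were below all control libraries. In leaves under HL+HS ASN1 was above control at both times. The labels do not say whether leaf and stem libraries came from the same plants. SEN1 in stem was near the limit of counting, at group means of 3.95 to 15.8 normalized counts. It read 14.7, 13.2 and 11.8 in control and 2.86, 4.57 and 4.42 under HL at 8 min, the lowest group. Its mean over the stem libraries was under the 10 normalized counts needed for the test, and without that filter limma called it lower in 2 of 8 groups, HL and HL&HS at 8 min.
DIN10 in stem split by treatment at 2 min. It read 901, 927 and 885 in control, 666, 580 and 572 under HL and 509, 506 and 554 under HL&HS, below control (log2 -0.58 and -0.79, SE 0.0609, adjusted p = 3.11e-10 and 8.19e-14). Under HS it read 807, 974 and 913 and overlapped control, and under HL+HS 975, 1010 and 1040, above it (log2 0.16, adjusted p = 0.0405), a call that did not hold without the filter on low values (adjusted p = 0.0764) or without stem control replicate 1 or 3 or its own replicate 2 or 3 (up to 0.146). At 8 min it was lower under HL (-0.30), HL+HS (-0.18) and HL&HS (-0.32), the HL+HS call being lost without stem control replicate 2 or its own replicate 1 (adjusted p up to 0.0731).

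TPS11 read 418, 455 and 476 in control stems and 1013, 805 and 833 in stems of HL+HS plants at 8 min (log2 0.97, SE 0.065, limma adjusted p = 2.61e-15), and all 24 stressed stem libraries were above control. Its smallest change was under HL at 2 min, 570, 547 and 567 (log2 0.32). TPS8 was highest in the same 8 min HL+HS stems, at 1526, 1473 and 1395 against 1041, 1008 and 1032 (log2 0.51, adjusted p = 1.08e-11). TPS10 read 770, 731 and 747 there against 587, 543 and 569 (log2 0.40, adjusted p = 3.76e-08). Neither was called under HL at 2 min, with log2 -0.10 for TPS8 and -0.03 for TPS10. The calls of TPS8 and TPS10 under HL at 8 min (both 0.14) were lost without stem control replicate 2 or stem HL 8 min replicate 3, and that of TPS8 under HS at 2 min (0.16) without stem HS 2 min replicate 2. TPS9 in stem was called higher in 5 groups by log2 0.18 to 0.27, and AKINBETA1 only under HL&HS at 8 min (0.18, adjusted p = 0.0259). Without stem control replicate 3, TPS9 under HS at 2 min and under HL, HL+HS and HL&HS at 8 min and AKINBETA1 under HL&HS were no longer called.

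**Figure D4:**
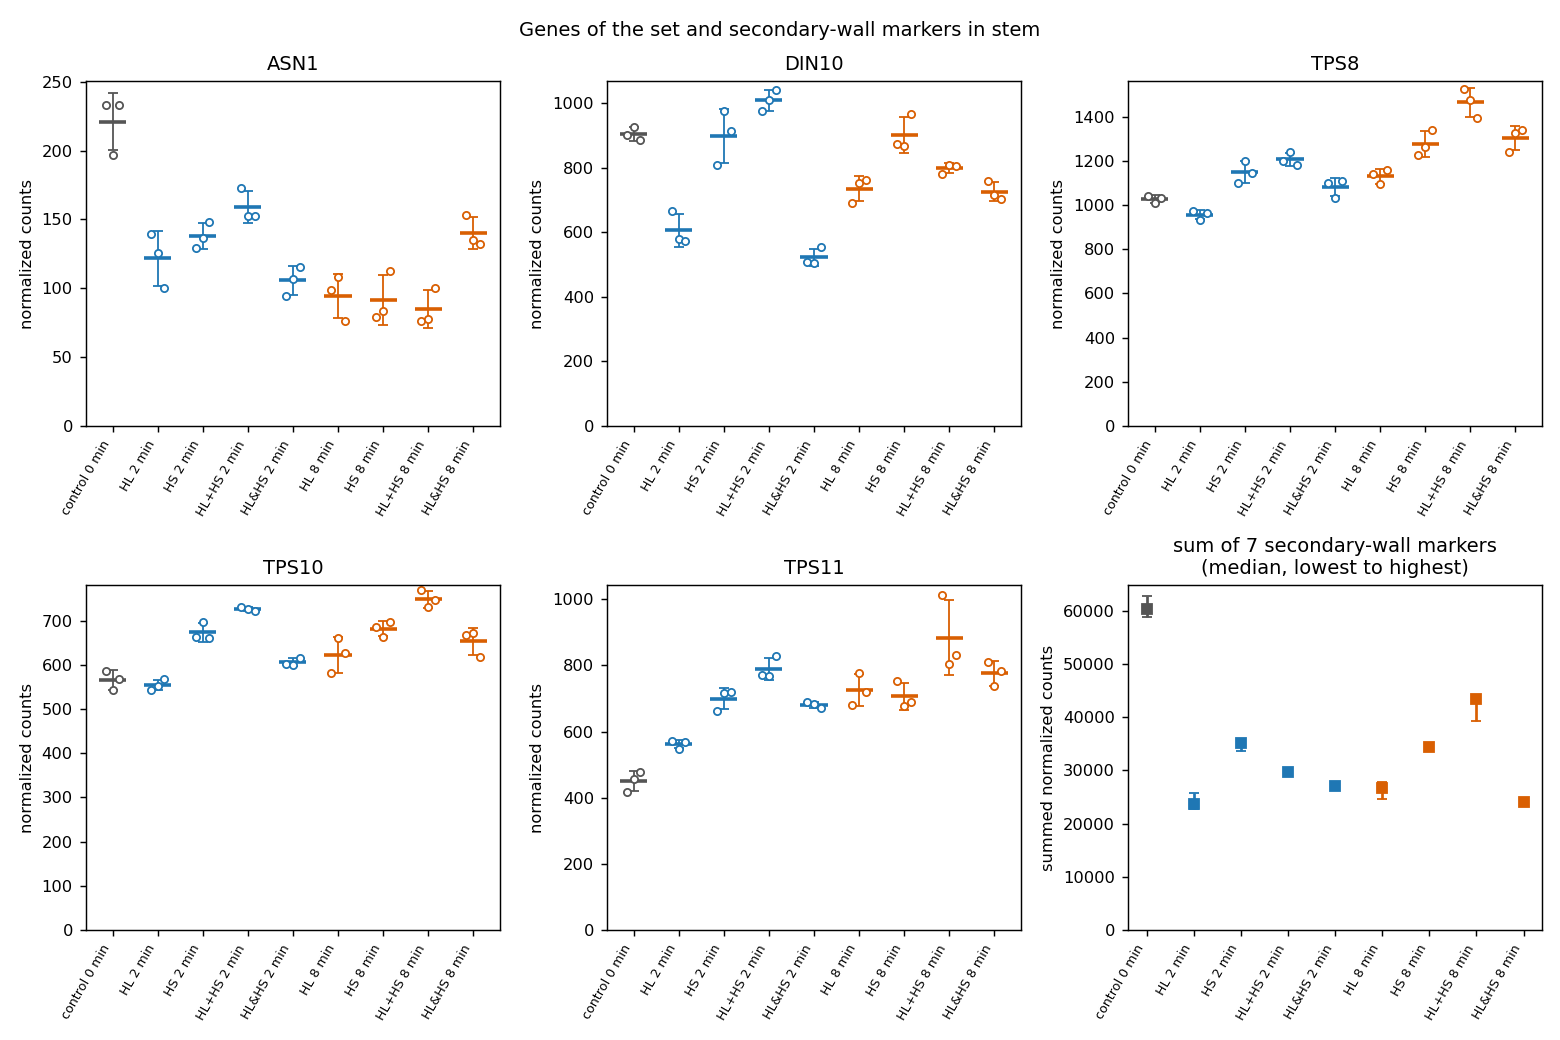
Normalized counts of ASN1, DIN10, TPS8, TPS10 and TPS11 in the 27 stem libraries by group (points are libraries, lines are means, bars are SD, n = 3), and the sum of 7 secondary-wall marker genes (median with lowest and highest library). Every stressed library lies below control for ASN1 and the marker sum and above it for TPS11.

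Between stressed stem groups, which leave out the control, HL at 2 min was lower than HS in 4 of 7 members (9.31% of all genes): DIN10 by log2 -0.57, TPS11 by -0.32, TPS10 by -0.28 and TPS8 by -0.26. Stems of plants with the stresses on separate leaves were lower than those with both on 1 leaf at 2 min in DIN10 by -0.95 (SE 0.0609, limma adjusted p = 8.9e-15), ASN1 by -0.59 and TPS10 by -0.26, which is 3 of 7 members where 3.12% of all genes were called. With edgeR, DESeq2, voom or only the compared groups 6 were called, AKINBETA1, TPS8 and TPS11 besides, and the ASN1 call was lost without replicate 1 of either group (adjusted p 0.0724 and 0.0733, by limma). The 3.12% belongs to the fit to all stem groups, and the share of all genes under those settings is not given here. At 8 min ASN1 was higher with the stresses on separate leaves, by 0.73 (adjusted p = 4.68e-05), at 153, 135 and 132 against 76.3, 77.8 and 100.5, and TPS10 (-0.20), TPS11 (-0.18) and TPS8 (-0.17) were lower, 4 of 7 against 37.8%. Without stem HL+HS 8 min replicate 1 the TPS11 difference had an adjusted p of 0.362. HL at 8 min was lower than HS in DIN10 (-0.29) and TPS8 (-0.18), 2 of 7 against 14.5%. Against the sum of the single stresses, ASN1 in stem was higher by 1.07 under HL+HS at 2 min, 1.12 at 8 min and 1.85 under HL&HS at 8 min (limma adjusted p = 4.13e-05, 9.72e-06 and 1.15e-09). As in leaf, the difference in depth from the 0 min control enters the departures at 2 min. For HL+HS, 3 of 7 members departed at 2 min (26.3% of all genes; ASN1, DIN10 at 0.75 and TPS8 at 0.18, a call lost without stem control replicate 1 or 3, among other libraries) and 3 at 8 min (41.0%; ASN1, TPS9 at -0.34 and TPS11 at -0.37). For HL&HS, 1 of 7 departed at 2 min (19.4%; TPS11 at -0.36) and 4 at 8 min (28.3%; ASN1, TPS9 at -0.28, TPS10 at -0.20 and TPS11 at -0.55). The TPS9 departure was lost without stem control replicate 3 or stem HL&HS 8 min replicate 3 (adjusted p up to 0.111) and that of TPS10 when any 1 of 6 libraries was left out (up to 0.12), and edgeR, DESeq2, voom and only the compared groups called 2 of 7, without these genes.

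The response differed between leaf and stem for several members when the mean change under HL, HS and HL+HS was compared in 1 fit. At 8 min ASN1 averaged log2 0.05 in leaf and -1.29 in stem, a difference of 1.34 (SE 0.163, limma adjusted p = 1.37e-09). TPS8 averaged 0.44 in leaf and 0.10 in stem at 2 min, a difference of 0.34 (adjusted p = 2.9e-07). In all, 3 of 8 members differed at 2 min, where 28.2% of all genes did, and 5 of 8 at 8 min, where 31.9% did. The 3 changes averaged for ASN1 at 8 min spanned -0.67 to 0.58 in leaf and -1.38 to -1.23 in stem.

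Other genes of these pathways were looked at by list, each given as genes called per group, with the genes of highest and lowest mean change named. Over all genes tested, 17.4% of the gene-by-group tests against control were called higher and 12.8% lower in leaf, and 19.1% higher and 19% lower in stem. The same shares are given for each list as a description, since the groups of a tissue share their control. Of 11 other low-sugar genes, 9 were tested in leaf, where 3 to 6 were lower and 0 to 2 higher per group, and 7 in stem, where 3 to 5 were lower and 0 or 1 higher. In leaf 8.89% of the list's tests were called higher and 42.2% lower, and in stem 5.36% and 62.5%. The median change of the list in leaf groups ran from log2 -0.70 to 0.03, against -0.01 to 0.02 over all genes tested. DRM2, a dormancy-associated gene, was lower in 8 of 10 leaf groups and higher in 1, which was HL+HS at 2 min. It read 176, 153 and 159 normalized counts in control leaves, 63.3, 67.8 and 76.6 under HL at 2 min and 222, 209 and 221 under HL+HS at 2 min (log2 -1.22 and 0.42). DRM1, of the same kind, was lower in 8 of 8 stem groups (mean log2 -1.27), and DIN3, a subunit of branched-chain amino acid breakdown, was higher in 3. DIN2, a beta-glucosidase, was near the limit of counting, at 15, 9 and 23 reads in control leaves and 2, 2 and 6 under HL at 2 min. Its fitted change ranged from log2 -3.24 under HL at 2 min to 2.07 in the heated HL&HS leaf at 2 min, and under HL+HS at 2 min, where ASN1 and SEN1 were higher, it was lower (log2 -2.51), at 15, 1 and 10 reads.
Among the other class II genes TPS5, TPS6 and TPS7, 0 to 2 were higher and 0 or 1 lower per leaf group, and 0 were higher and 0 to 2 lower per stem group by limma, or 13.3% of tests higher and 13.3% lower in leaf and 0% and 41.7% in stem. In leaf TPS6 had the highest mean, log2 0.04, called in 1 of 10 groups, and TPS7 the lowest, -0.07. TPS5 was lower in 7 of 8 stem groups (mean log2 -0.31), where TPS11 was higher in 8. TPS6 had the highest stem mean, log2 0.03, and was called in 0 of 8 stem groups. Of 15 trehalose pathway enzymes, 10 were tested in leaf (2 to 4 higher and 0 to 2 lower per group) and 11 in stem (0 to 3 higher, 1 to 4 lower), or 27% of tests higher and 6% lower in leaf and 15.9% and 29.5% in stem. TPPE, a trehalose-6-phosphate phosphatase, was higher in 10 of 10 leaf groups (mean log2 0.55) and 7 of 8 stem groups (0.37), and TPPG, of the same family, was lower in 8 of 8 stem groups (-0.47). TPPJ had the lowest leaf mean, -0.10, and was lower in 2 groups.
Of the 6 other SnRK1 subunit genes, 0 to 2 were higher and 0 or 1 lower per leaf group, and 1 to 6 were lower per stem group, with 6 of 6 lower under HL&HS at 8 min. Their shares were 11.7% higher and 5% lower in leaf, both under those of all genes, and 0% and 35.4% in stem. KING1, a gamma-type subunit, was lower in 8 of 8 stem groups (mean log2 -0.32), and KIN11, a catalytic subunit, was higher in 4 of 10 leaf groups (0.10) and lower in 1 stem group. AKINBETA3 had the lowest leaf mean (-0.12) and was not called in leaf. Of 7 bZIP factors of groups C and S1, known to act with SnRK1 on ASN1, 1 to 3 were higher and 1 to 3 lower per leaf group, and 0 to 3 higher and 1 to 5 lower per stem group, or 32.9% of tests higher and 30% lower in leaf and 17.9% and 39.3% in stem. BZIP1 was higher in 7 of 10 leaf groups (mean log2 0.52) and BZIP11, whose translation is known to be repressed by sucrose, lower in 8 (-0.50). In stem BZIP2 was lower in 8 of 8 (-0.23), and BZIP1 was higher in 2 and lower in 1.
Of 4 genes known to be raised by sugar, 1 to 3 were higher and 0 to 2 lower per leaf group, and 3 were tested in stem, with 0 to 2 higher and 1 lower per group, or 35% of tests higher and 25% lower in leaf and 41.7% and 33.3% in stem. BAM5, a beta-amylase, was higher in 10 of 10 leaf groups (mean log2 2.03), and higher in 6 of 8 stem groups (0.67). In control leaves BAM5 was near the limit of counting, at 7, 9 and 4 reads. Its mean there was 11.5 ± 4.12 normalized counts, against 625 ± 47.9 in control stems (SD, n = 3). GPT2, a plastid sugar-phosphate carrier, was lower in 3 leaf groups and higher in 1, and was also low in control leaves, at 16, 9 and 11 reads. APL3, of starch synthesis, was lower in 8 of 8 stem groups (-0.48). The other asparagine synthetases differed from ASN1: ASN2 was higher in 6 of 10 leaf groups (mean log2 0.28) and lower in 4 of 8 stem groups, and ASN3 was called in 0 leaf groups and higher in 5 stem groups (0.20), so that 30% of the pair's tests were higher and 0% lower in leaf, and 31.2% and 25% in stem. Of 9 clock genes, 1 to 4 were higher and 1 to 3 lower per leaf group, and 7 were tested in stem, with 0 to 3 higher and 3 to 5 lower, or 24.4% of tests higher and 21.1% lower in leaf and 17.9% and 51.8% in stem. LHY, a morning factor, was lower in 10 of 10 leaf groups (mean log2 -0.47) and 8 of 8 stem groups (-0.83), PRR7 was higher in 10 of 10 leaf groups (0.49), and TOC1 was higher in 6 of 8 stem groups (0.27). The labels give no time of day.

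Across the 33 leaf libraries, the members fell into loosely related pairs when log2 levels were correlated, which describes libraries that share controls, treatments and depth. Pearson's r was 0.79 between TPS8 and TPS11, 0.76 between AKINBETA1 and TPS11 and 0.64 between ASN1 and SEN1, and it was -0.01 between ASN1 and DIN10. Across the 27 stem libraries r was 0.83 between TPS8 and TPS10, 0.81 between TPS10 and TPS11 and -0.57 between ASN1 and TPS11. The genes most like each member were sought among those averaging 100 normalized counts or more, 13800 in leaf and 14276 in stem. In leaf these were UBQ3 (r = 0.80), GLN1.3 (0.77) and WRKY2 (0.74) for ASN1, AT1G80440, AT1G23390 and AT1G74940 (each 0.90) for TPS8, and AT2G29670 (0.94), AT1G27210 (0.93) and AT1G70820 (0.92) for TPS11. UBQ3 is a polyubiquitin gene and GLN1.3 a cytosolic glutamine synthetase. For TPS9 they were AIB (0.67), AOS (0.66) and NET4B (0.65), and for TPS10 AT5G20660 (0.74), AT1G73980 (0.70) and RAP2.12 (0.67). In stem they were ABCC13 (0.85), THIC (0.82) and AT5G57655 (0.81) for ASN1, J8 (0.91), HB6 (0.90) and AOS (0.89) for TPS8, and ECIP1 (0.93), PGL1 (0.93) and PIF4 (0.90) for TPS11. For TPS9 in stem they were AT1G21090 (0.76), JKD (0.74) and AT1G49750 (0.74), and for TPS10 FER (0.88), AT2G12400 (0.87) and COR413IM1 (0.86).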

How the data were processed

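RNA was sequenced from the leaves and stems of 60 samples, in groups and replicate numbers taken from the titles. The deposited table holds a signal for every gene in every library, namely reads divided by that library's size factor (normalized counts). The submitters' processing notes name FastQC 0.11.7, STAR 2.4.0.1, DESeq2 1.20.0 and the build TAIR10; the counting tool, its use of strand and of reads with several matches are not given in the sources used here. For 100% of values whole reads were recovered (tolerance 1e-06 reads), and the size factors matched median-of-ratios factors over 17810 genes.

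After adding a pseudocount of 1 and taking log2, limma 3.58.1 (R 4.3.3; lmFit and eBayes, trended prior) was fitted once per tissue to all its libraries, or to both tissues for leaf against stem. Genes averaging 10 normalized counts or more entered, which were 18231 for leaf, 18428 for stem and 18893 for the joint fit. Tests were two-sided, with Benjamini-Hochberg adjustment over all genes and calls at adjusted p under 0.05; the pseudocount understates changes of low genes. A departure is combined minus HL minus HS plus control on the log2 scale. The fit was run on counts simulated from the leaf libraries' means and sizes, with known changes and the same dispersion for all genes. This was a check of the code and not of the calls in these data. Alternatives were a pseudocount of 0.1, no filter, rescaling within tissue, edgeR 4.0.16, DESeq2 1.42.0 and limma voom on recovered reads, only the compared groups, a replicate block and leaving out each library, and, added after seeing the data, the 8 min leaf HL and HS groups exchanged. Replicate pairs differed beyond sampling noise (chi-square per gene 1.34 to 6.6 over 60 pairs).

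All 8 members are named. From each other list except those of leaf and secondary-wall markers, the genes with the highest and lowest mean change in each tissue are named. For likeness, the 3 genes with the highest Pearson r to ASN1 and to each class II member are named. Members and lists were chosen with earlier results of these data known. Names and positions are from RefSeq TAIR10.1, which matched 32548 of 32833 genes.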

Additional observations from a re-analysis of the deposited data

Results flagged for a closer look

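For several members the mean change under HL, HS and HL+HS differed between leaf and stem by the limma test of the difference itself, over all 60 libraries. At 2 min the leaf change minus the stem change on the log2 scale was 0.26 for AKINBETA1 (0.25 in leaf, -0.01 in stem; adjusted p = 0.00784, and 0.101 without stem control replicate 2), 0.34 for TPS8 (0.44 and 0.10) and 0.24 for TPS11 (0.83 and 0.59; adjusted p = 0.00737, and 0.0505 without stem control replicate 3). At 8 min it was 1.34 for ASN1 (0.05 in leaf, -1.29 in stem; adjusted p = 1.37e-09), -0.34 for DIN10 (-0.50 and -0.16), 0.30 for AKINBETA1 (0.32 and 0.02), 0.21 for TPS8 (0.53 and 0.32) and -0.20 for TPS10 (0.07 and 0.27; adjusted p = 0.0134, and 0.0616 without stem control replicate 2). For ASN1 at 8 min the 3 leaf changes averaged were 0.23, -0.67 and 0.58 and the 3 stem changes -1.23, -1.27 and -1.38. The secondary-wall markers of stem were lower in the same stem groups, and their part in these differences was not tested.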

How the results depend on the processing

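No member's called change turned its sign under the alternatives planned. Exchanging the 8 min leaf HL and HS groups, chosen after seeing the data, turned signs by the construction of the alternative. In the lit HL&HS leaf ASN1 went from log2 -0.84 to 0.0557, DIN10 from 0.13 to -0.21, AKINBETA1 from 0.03 to -0.17 and TPS8 from 0.01 to -0.60, with 5 members called in place of 3. In the heated one DIN10 went from -0.24 to 0.10, TPS8 from -0.04 to 0.57 and TPS11 from -0.17 to 0.0448, with 2 called in place of 5. Against control, 97 of 136 member tests were called, and 92 to 97 under the alternatives that keep all libraries. Over all genes, 17.4% of tests against control were called higher and 12.8% lower in leaf, and 19.1% and 19% in stem. Between stressed groups 58 of 108 member tests were called (56 to 63), against 3.12% to 38.6% of all genes per comparison. For departures the count was 21 of 44 (19 to 21), against 19.4% to 41% of all genes. For leaf against stem control it was 7 of 8 in each, against 82.9%. For the mean response it was 8 of 16 (7 or 8), against 28.2% at 2 min and 31.9% at 8 min. These shares belong to the main fits, and those under the alternatives are not given here. With edgeR, DESeq2, limma voom and only the compared groups, the members called for leaf HL against HS at 2 min were 4 in each in place of 2, and for stem HL&HS against HL+HS at 2 min 6 in each in place of 3. Departures for stem HL&HS numbered 3 by edgeR, DESeq2 and voom and 2 with only the compared groups at 2 min (main 1), and 2 by all of these at 8 min (main 4). Only the compared groups also gave 3 for leaf titled HL against titled HS (main 5) and 1 for stem HL against HS at 8 min (main 2). Leaving out 1 library gave 1 to 3 departures for stem HL&HS at 2 min (3 without stem control replicate 2) and 2 to 4 at 8 min (2 without stem HL&HS 8 min replicate 3), 3 to 5 members for stem HS at 2 min against control (3 without its replicate 2), and 1 to 3 for stem HL against HS at 8 min (1 without stem HS 8 min replicate 3). The causes were not tested. No call of ASN1, SEN1 or TPS11 against control was lost on leaving out a library; calls lost were of TPS9 (6 comparisons), AKINBETA1 (3), TPS10, TPS8 and DIN10 (2 each). Between groups, TPS11 in HL+HS against the group titled HS at 8 min (adjusted p up to 0.217), ASN1 in HL+HS against the group titled HL at 8 min (up to 0.115) and ASN1 in stem HL&HS against HL+HS at 2 min (up to 0.0733) were lost without 1 of several libraries. Replicate numbers paired the samples in 0 of 33 comparisons (pair correlations -0.134 to 0.141); a replicate block ended 1 call, TPS10 in leaf under HS at 2 min (log2 0.18, adjusted p = 0.0540), and left 96 of 136 against control. Depth limits SEN1 in stem, where 3 reads are worth up to 5.07 normalized counts. Rescaling within tissue moved no median by over 0.1.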
